A study of Mus musculus with 5 samples.

Results

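The 8 keratin genes Krt5, Krt14, Krt15, Krt17, Krt7, Krt8, Krt18 and Krt19 were followed through the cells of the mouse mammary gland. They were taken by gene symbol, each matched 1 row, and they are 8 of the 32285 genes listed. Cells of mammary tissue had been captured in droplets as 5 libraries, and transcripts were read from their 3′ end with 10x Genomics chemistry. The sample titles do not say how many mice each library holds. The libraries labelled Frmd3 knockout are called KO1, KO2 and KO3, and those labelled wild type WT1 and WT2. No source used here gives the strain, age, sex, reproductive stage, deleted stretch or driver of the deletion. The series title names mammary epithelial cell fate and Notch signalling as its subject.

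Keratins are the intermediate filament proteins of epithelial cells. A filament is built from pairs of 1 type I and 1 type II chain, so the genes are used in sets: Krt5 (type II) with Krt14 (type I) in basal layers, and Krt8 (type II) with Krt18 (type I) in simple epithelia. In the mammary gland the inner luminal cells, which comprise milk-lineage progenitors and hormone-sensing cells, are known for Krt8, Krt18 and Krt19, and the outer contractile basal or myoepithelial cells for Krt5 and Krt14. Krt7 is a type II partner of simple epithelia, Krt15 a type I chain of basal keratinocytes and Krt17 a type I chain of basal and stressed epithelium.

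The genes sit in the pair of keratin clusters of the mouse genome (GRCm38, GENCODE vM21). Krt7, Krt5 and Krt8 lie on chromosome 15 with Krt18, the only type I gene there, which starts 23.7 kb beyond the Krt8 gene on the opposite strand (chr15:102028180-102032027, plus strand; Krt8 at chr15:101996698-102004482, minus strand). Krt15, Krt19, Krt14 and Krt17 lie in that order on chromosome 11, where Krt15 and Krt19 are 4.88 kb apart. Of the 31-base words in the last 500 bases of the transcripts, 81 of 470 were shared between Krt14 and Krt17, so the split of UMIs between these 2 genes is uncertain. For Krt18, 44 of 470 words were shared with Gm5200. Krt5, Krt8 and Krt15 shared none with another gene.

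The stretches before the starts of Krt5, Krt8 and Krt18 are shown because these 3 genes mark the basal and the luminal side of the results. They come from the RefSeq promoter table (GRCm38.p6), which holds 5 of the 8 genes, and only bases before the GENCODE gene are printed. That left none for Krt14 and Krt7. Capitals mark a match to 1 of 4 motifs searched on both strands: a TATA-like word (ATAAAA), the AP-2 word (GCCNNNGGC), the GC box (GGGCGG) and the AP-1 word (TGANTCA). The Krt5 stretch is chr15:101712906-101713155, the Krt8 stretch chr15:102004483-102004592 (both minus strand) and the Krt18 stretch chr15:102027966-102028179 (plus strand).
Krt5: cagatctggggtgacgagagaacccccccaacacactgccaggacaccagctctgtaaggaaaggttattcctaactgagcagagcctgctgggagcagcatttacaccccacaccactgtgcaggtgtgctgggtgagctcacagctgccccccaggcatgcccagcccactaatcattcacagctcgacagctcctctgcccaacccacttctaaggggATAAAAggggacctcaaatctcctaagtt
Krt8: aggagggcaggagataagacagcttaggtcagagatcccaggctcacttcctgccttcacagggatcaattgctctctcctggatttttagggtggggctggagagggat
Krt18: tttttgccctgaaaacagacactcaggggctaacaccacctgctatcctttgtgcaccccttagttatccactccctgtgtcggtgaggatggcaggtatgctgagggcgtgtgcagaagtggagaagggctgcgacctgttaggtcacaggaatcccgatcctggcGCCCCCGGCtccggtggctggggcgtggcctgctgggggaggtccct
In the 250 bases before the RefSeq start, Krt5 held 1 TATA-like word, 29 bases before the start, and 17.0% of all 32851 promoters of that length held one. Krt18 held 1 AP-2 word, 83 bases before the start, against 13.7% of promoters. Krt8 held none of the 4, and the AP-1 word was in none of the 5 windows (6.75% of promoters). The GC box was in none of Krt5, Krt8 and Krt18, and in 32.7% of promoters.

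The libraries held 32472 barcodes and 308558851 UMIs (molecule counts), and 28588 barcodes passed the limits of 500 genes and 15% mitochondrial UMIs. After removal of 1754 likely doublets, 26834 cells formed 41 clusters. Library pairs shared between 1 and 18 barcodes. No keratin was used to cluster or name cells. Keratins were not left out of the genes that doublets were scored on, so they could affect which cells were removed. The classes come from the same cells and their differences are given without a test. Frmd3, the targeted gene, was at 132, 191 and 37 UMIs in KO1, KO2 and KO3 and at 75 and 188 in WT1 and WT2, or 1.69 to 3.23 CPM against 1.49 and 2.41 (CPM, UMIs of a gene per 1000000 UMIs). All levels below are CPM over the UMIs of a class in a library. A UMI is read at the transcript end, so its count does not grow with gene length. It was not lower in the knockout-labelled libraries, and a 3′ count outside the deleted part would check nothing, so the genotype is given throughout as labelled.

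The luminal progenitor-like class (LP) held 772, 409, 48, 724 and 288 cells in KO1, KO2, KO3, WT1 and WT2. The hormone-sensing luminal-like class (HS) held 293, 1573, 179, 634 and 995. The basal/myoepithelial-like class held 131, 34, 36, 133 and 71. Csn3, a milk casein gene, was at 1610 to 4480 CPM in LP and at 7.23 to 195 in HS. Prlr, the prolactin receptor, was at 1570 to 3140 in HS and at 62.6 to 137 in LP. Acta2, smooth muscle actin, was at 5730 to 7370 in the basal class and at 21.8 or less in both luminal classes. Most HS cells of KO2 and WT2 fell in a cluster led by Fgb (1114 and 720 cells) and most of KO1 and WT1 in a cluster led by Aoc1 (229 and 521), while KO3 had 95 cells in a cluster led by Fos and Mfsd2a and 49 in a very deep one led by Tph1 (median 43902 UMIs).

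KO1 and KO3 stood apart. In KO1, 54.8% of cells were in unnamed clusters, against 4.46% to 29.8% in the others, and 3687 of its 9450 cells made up a single cluster with a median of 2817 UMIs. KO3 had the largest share of barcodes over the mitochondrial limit, 18.5%, and the heat shock gene Hspa1b at 1110 to 4150 CPM in its 3 epithelial classes, against 88.0 to 229 in the other libraries. It is also the library made with Cell Ranger 6.1.2, the others with 6.0.2, so the version and this library cannot be told apart.

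Krt5, the type II basal chain, was the most even of the basal keratins. Basal cells held 579, 559, 446, 559 and 449 CPM of Krt5 in KO1, KO2, KO3, WT1 and WT2, a mean of 518 ± 65.2 (SD, n = 5). The libraries of both genotypes overlapped. In LP it was at 0 to 0.686 and in HS at 0.164 to 2.13, which is the range seen in leukocytes (0 to 2.78). After each cell was thinned to 3000 UMIs, 58.6% to 81.7% of basal cells held a Krt5 UMI, against at most 0.434% of leukocytes.

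Krt14, its type I partner, was at 1939, 2161, 1102, 2279 and 1750 CPM in basal cells, a mean of 1846 ± 463 (SD, n = 5). KO3 was the lowest, and the libraries of the genotypes overlapped. In LP the level was 1.98, 8.23, 0, 4.23 and 31.04 and in HS 1.83, 0.776, 11.4, 2.89 and 0.638, so the highest luminal values came from 1 library in each class, WT2 in LP and KO3 in HS. These highs rested on a few cells. In WT2, 2 of the 288 LP cells carried 88 of the 164 Krt14 UMIs, 1 of them 70, and the level without those 2 was 14.5. In KO3, 2 of the 179 HS cells carried 61 of 75, and the level without them was 2.20. The KO3 HS cells also held more luminal progenitor marker RNA, 3540 CPM summed over 13 genes against 324 to 600 in the other libraries, and 593 against 40.1 to 96.6 for 12 basal markers. The part of these in the Krt14 value was not tested.

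**Figure D1:**
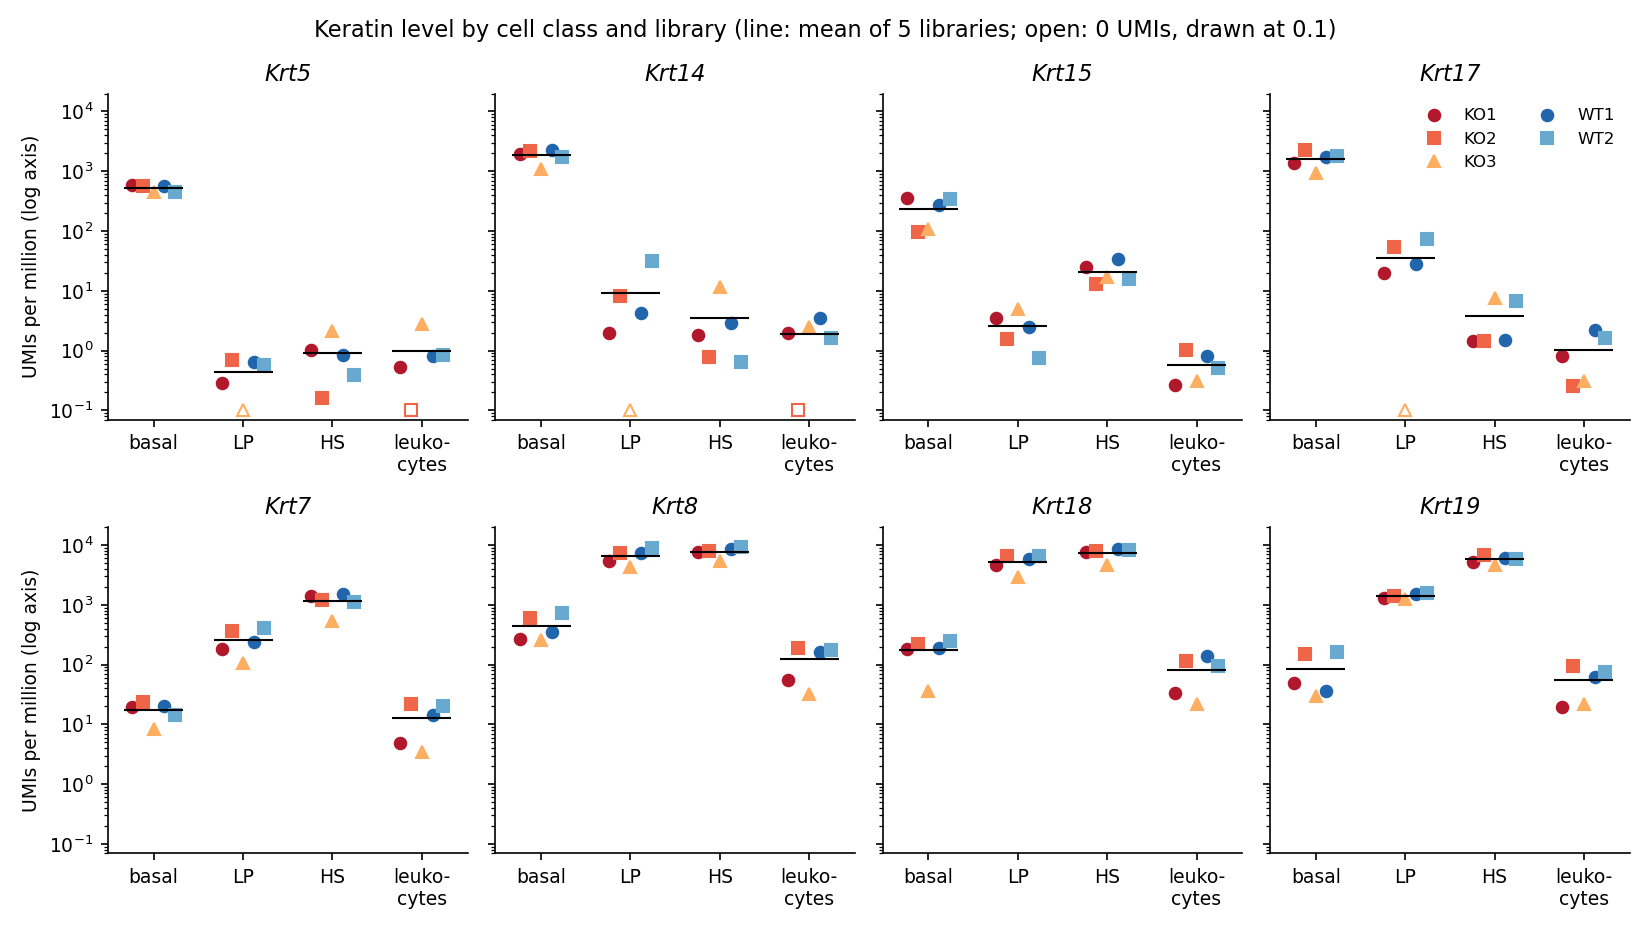
Level of each keratin in basal/myoepithelial-like, luminal progenitor-like (LP), hormone-sensing luminal-like (HS) and pooled leukocyte classes, in CPM on a log axis. Each point is 1 library, lines are means of 5 libraries, and open marks stand for 0 UMIs; the first 4 keratins are highest in basal cells and the last 4 in HS cells.

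Krt17, a type I chain, was at 1371, 2231, 939, 1731 and 1832 CPM in basal cells (mean 1621 ± 489, SD, n = 5). Of the 4 basal keratins it reached the highest level in LP, with 19.6, 54.2, 0, 28.2 and 74.2 CPM, against 1.42 to 7.62 in HS. LP was above HS in the 4 libraries with UMIs in LP, by 10.8- to 37.9-fold. For the 48 LP cells of KO3, 0 UMIs allows up to 7.32 CPM, which covers counting error only. The LP UMIs came from 27, 53, 47 and 58 cells in KO1, KO2, WT1 and WT2, and the 2 highest cells held 32.4%, 24.1%, 40.5% and 20.7% of them. KO2 and WT2 were above the other 3 libraries for Krt14, Krt17, Krt7 and Krt18 in LP. The same libraries had Mki67, a proliferation gene, at 27.1 and 23.3 in LP, against 0.283 and 1.15 in KO1 and WT1 and 26.8 in KO3.

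Krt15 did not follow Krt14 and Krt17 in the luminal classes. It was at 352, 95.9, 106, 272 and 341 CPM in basal cells (mean 233 ± 125, SD, n = 5), with KO2 and KO3 well below the other 3. HS cells held 25.2, 12.9, 16.9, 34.2 and 15.9 and LP cells 3.53, 1.54, 4.88, 2.44 and 0.757. HS was thus above LP in 5 of 5 libraries, with 2 LP UMIs in KO3. Krt14 and Krt17 were above in LP in 4 of 5 libraries, all but KO3, where LP held 0 UMIs. For Krt14 the LP level was near that of leukocytes in KO1 (1.98 against 2.0) and WT1 (4.23 against 3.55). Krt5 was above in LP in 2 of 5, at leukocyte-like levels in both classes. The HS level was 12.6 to 41.7 times that of leukocytes in the 3 libraries where both had over 3 UMIs. It was held by a minority of cells: 2.42% to 8.21% of HS cells kept a Krt15 UMI after thinning, against 0.0917% to 0.400% of leukocytes. Since HS cells far outnumber basal cells, HS cells supplied 23.0%, 82.7%, 66.1%, 53.0% and 37.5% of all Krt15 UMIs in KO1, KO2, KO3, WT1 and WT2. In HS, 51, 119, 44, 151 and 113 cells held it, and the 2 highest carried 10.8% to 23.4%.

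Krt8, the type II chain of simple epithelia, was high in both luminal classes. HS cells held 7610, 7855, 5324, 8500 and 9126 CPM (mean 7683 ± 1440, SD, n = 5) and LP cells 5378, 7221, 4223, 7230 and 8746 (mean 6560 ± 1770). HS was above LP in 5 of 5 libraries, by 1.04- to 1.41-fold. KO3 was lowest in both classes.

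Krt18, its type I partner, was at 7606, 7964, 4666, 8669 and 8112 in HS (mean 7403 ± 1580, SD, n = 5) and at 4540, 6441, 2937, 5805 and 6639 in LP (mean 5272 ± 1540). HS was above LP by 1.22- to 1.68-fold, in 5 of 5 libraries. After thinning, 97.5% to 99.8% of LP cells and 99.3% to 100% of HS cells held a Krt18 UMI.

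Krt19, a type I chain with a very short tail, differed between the luminal classes by a like fold in each library. It was at 5262, 6869, 4631, 6089 and 5780 in HS (mean 5726 ± 845, SD, n = 5) and at 1299, 1381, 1252, 1532 and 1590 in LP (mean 1411 ± 146). HS was 3.64 to 4.97 times LP, a mean log2 difference of LP from HS of -2.01 ± 0.18 (SD, n = 5). Krt7, a type II chain, showed the same order with more spread: 1394, 1204, 533, 1521 and 1115 in HS (mean 1153 ± 381) and 181, 368, 105, 242 and 407 in LP (mean 261 ± 126), or 2.74 to 7.69 times higher in HS. The share of cells with a Krt7 UMI after thinning was 81.8% to 95.2% in HS and 30% to 51.8% in LP.

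HS cells held more type I than type II UMIs, and LP cells about equal shares. Type II chains made up 37.9% to 42.4% of the UMIs of the 8 keratins in HS and 48.7% to 52.3% in LP, with no overlap between the classes. In basal cells the type II share was 17.2% to 24.4%. These are shares of UMIs, and capture can differ between genes. The 8 genes together took 1.52% to 2.48% of all UMIs in HS, 0.852% to 1.75% in LP and 0.293% to 0.604% in basal cells, and KO3 was the lowest library in each class.

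**Figure D2:**
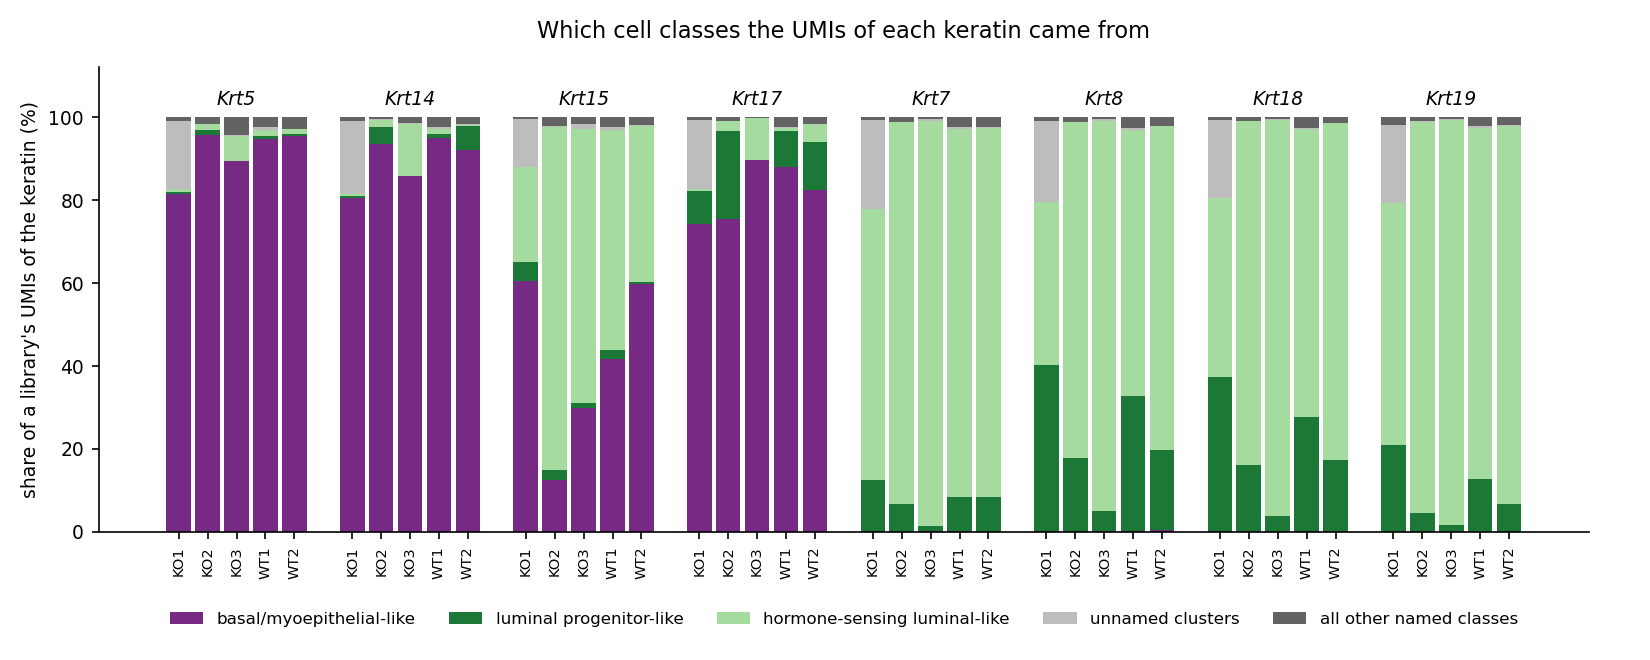
Share of each library's UMIs of a keratin that came from each cell class, in percent, as stacked bars for KO1, KO2, KO3, WT1 and WT2. Krt15 is split between basal and HS cells (HS 23.0% to 82.7%), and the grey blocks in KO1 are the unnamed clusters of that library.

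Luminal keratins also gave UMIs in cells outside the luminal classes, and the level differed between libraries. Pooled leukocytes held 55.3, 187, 32.2, 160 and 174 CPM of Krt8 in KO1, KO2, KO3, WT1 and WT2, and 5.42% to 38.6% of them kept a Krt8 UMI after thinning. Basal cells held 263, 597, 259, 356 and 729, which is 2.22 to 8.06 times the leukocyte level and above it in 5 of 5 libraries. For Krt18 the basal level was 1.37 to 5.38 times that of pooled leukocytes, above in 5 of 5. Single leukocyte classes could exceed basal cells. Krt18 was at 319 in monocyte-like cells of WT1 against 187 in basal cells. Krt8 was at 822 in the 39 neutrophil-like cells of KO2 against 597. A level above the pool therefore does not set basal cells apart from every leukocyte class. Krt7 and Krt19 in basal cells were 0.716 to 4.04 and 0.589 to 2.55 times the leukocyte level, above in 4 of 5. A basal level at or below that of leukocytes, cells that should lack these genes, is read as background.

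The balance within the Krt8 and Krt18 pair differed between classes. Krt8 was 49.5% to 53.3% of Krt8 plus Krt18 UMIs in HS and 52.9% to 59.0% in LP, and LP was above HS in each library. In basal cells it was 59.4%, 72.7%, 87.8%, 65.6% and 74.3%. The pooled leukocytes of the same libraries gave 62.3%, 61.9%, 59.1%, 54.0% and 65.2%. Among single leukocyte classes, the neutrophil-like cells of KO2 reached 74.4%, above the basal cells of that library. The exact binomial 95% intervals of basal cells lay above those of leukocytes in KO2, KO3, WT1 and WT2 and overlapped in KO1 (54.4% to 64.2% against 58.4% to 66.0%). The intervals cover counting error only. Csn3 was at 6.48, 431, 117, 9.99 and 1260 CPM in basal cells, highest in WT2 and KO2, the libraries where basal Krt8 was highest, and the part of luminal RNA in the basal Krt8 level was not tested.

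**Figure D3:**
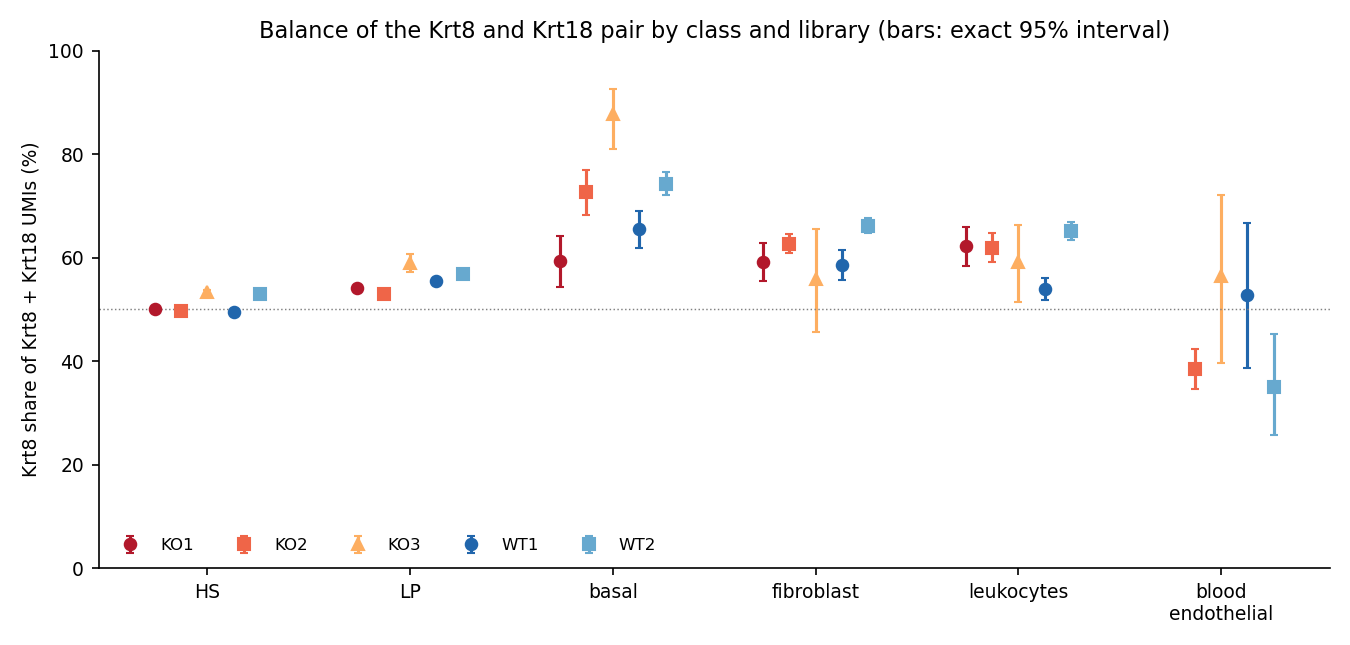
Krt8 as a share of Krt8 plus Krt18 UMIs, in percent, for HS, LP, basal, fibroblast, pooled leukocyte and blood endothelial classes; each point is 1 library with at least 20 cells and 20 UMIs, and bars are exact 95% intervals for counting error. Basal cells of 4 libraries lie above the leukocytes of the same library, and the endothelial cells of KO2 (38.4%) and WT2 (35%) lie below 50%.

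Blood endothelial-like cells of 2 libraries showed the reverse balance. The cluster led by Gkn3 and Cytl1 held 189 Krt18 UMIs against 134 of Krt8 in the 114 cells of KO2, and 65 against 35 in the 28 cells of WT2. Krt18 was at 153 and 190 CPM there, above the leukocyte levels of 115 and 92.9, while Krt8, at 109 and 102, was below the leukocyte levels of 187 and 174. Epcam, an epithelial adhesion gene, was at 27.6 and 14.6 and Pecam1, an endothelial one, at 1450 and 1670. A single cell held up to 27 and 15 of the Krt18 UMIs, and after thinning 25.3% and 34.8% of cells held one, against 29.8% and 19.3% of leukocytes. In the endothelial cluster led by Selp, Krt18 was below the leukocyte level in KO1, KO3 and WT1 (24.1, 11.1 and 56.3 against 33.5, 22.3 and 137). In KO2 that cluster had 17 cells, under the limit of 20, and its own level was not computed. The whole endothelial class of KO2 was at 262 CPM of Krt18, above the 153 of its Gkn3 cluster. The level in those 17 cells was therefore higher still and above the leukocyte level of 115, unlike in KO1, KO3 and WT1. The whole endothelial class of KO2 held 399 Krt18 and 249 Krt8 UMIs in 131 cells. The UMIs outside the Gkn3 cluster came from those 17 cells, so the KO2 balance of the class rests in large part on them.

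Outside the named epithelium, KO1 differed from the other libraries for all 8 genes. Its largest unnamed cluster, led by Lyve1 and other macrophage genes, held Krt8 UMIs in 97.7% of cells, with a median of 5 per cell and at most 46, and Krt18 UMIs in 96.3%. The same cells held the fibroblast collagen Col1a1 in 99.1%, the macrophage gene C1qa in 79.4%, Csn3 in 75.8%, Acta2 in 49.1% and Krt14 in 9.76%. With the other unnamed clusters it accounted for 11.5% (Krt15) to 21.3% (Krt7) of the UMIs of each keratin in KO1, whereas unnamed clusters gave at most 1.19% of any of the 8 in the other libraries. In WT1, a red blood cell-like cluster of 130 cells, with a median of 4206 UMIs, likewise held a Krt8 UMI in every cell and Col1a1 in 85.4%. Neither cluster enters the epithelial classes.

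Within LP, a cluster led by Kit and a deeper one led by Plet1 differed in keratin level. Krt7 was 0.457 to 0.510 times as high in the Kit cluster as in the Plet1 cluster, Krt8 0.505 to 0.764, Krt18 0.616 to 0.726, Krt19 0.639 to 0.842 and Krt17 0.165 to 0.563, each lower in 4 of 4 libraries with both. Krt14 and Krt15 were lower in 1 of the 3 libraries with a ratio. The Kit cluster was also shallower, with median UMI counts of 4556 to 7711 where the Plet1 cluster had 11178 to 18278, and the part of depth in these differences was not tested. Of the 48 LP cells of KO3, 40 fell in the Kit cluster, and the part of this in the low LP keratins of KO3 was not tested. Within the Kit cluster, Krt8 was at 3179, 5852, 3497, 4635 and 6245 CPM in KO1, KO2, KO3, WT1 and WT2. There KO1, not KO3, was the lowest library for Krt8 and for Krt19 (929, next KO3 at 971). KO3 stayed the lowest for Krt18 (2529, next KO1 at 3152) and Krt7 (79.7, next KO1 at 108). Within HS, Krt8 in the cluster led by Fos and Mfsd2a was 0.460 and 0.526 times that of the Fgb cluster in KO2 and WT2, and 0.689 and 0.724 times that of the Aoc1 cluster in KO1 and WT1. The Fos and Mfsd2a cluster was the shallower in those 4 libraries, and again depth was not tested as a part of it.

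Few cells of the luminal classes held UMIs of both kinds of keratin. After thinning, 0.307%, 1.33%, 0, 1.06% and 2.54% of LP cells held both a Krt8 or Krt18 UMI and a Krt5 or Krt14 UMI; the 0 of 40 cells in KO3 has an exact upper limit of 8.81%. In HS the shares were 1.10%, 0.483%, 2.42%, 1.54% and 0.624%. They came from 0 to 9 cells a library. Likely doublets had been removed in a step that did not leave keratins out, and its part in these shares was not tested. Among thinned leukocytes 0 to 0.901% held a Krt14 UMI and 0 to 0.434% a Krt5 UMI, so shares near these are not read as double expression. Leukocytes with either gene were not counted. The Krt14 level was above that of leukocytes in 2 of 5 libraries in HS and 3 of 5 in LP, 19.4 times in LP of WT2. The 2.54% of WT2 LP cells, 7 cells, was above the 0.556% (Krt14) and 0.370% (Krt5) of WT2 leukocytes. The 1.33% of KO2 LP cells, 5 cells, was above 0% for both genes in KO2 leukocytes. The 0.307% of KO1 LP cells was below the 0.459% (Krt14) of KO1 leukocytes. In HS each share was above both leukocyte shares of its library, as in KO3 (2.42%, 4 cells, against 0.217% for Krt14 and 0.434% for Krt5). None of these shares is read either way. Without thinning the shares were 2.07%, 5.62%, 0, 4.70% and 9.03% in LP and 2.05%, 1.34%, 6.70%, 4.42% and 2.11% in HS, with median depths from 7168 to 16415 UMIs a cell in LP and 14710 to 26502 in HS. By genotype, the LP share was 0.544% ± 0.694 (SD, n = 3) in knockout-labelled and 1.80% ± 1.05 (n = 2) in wild type libraries (two-sided exact permutation p = 0.3, adjusted p = 0.6 over the 2 luminal classes). The HS share was 1.34% ± 0.992 against 1.08% ± 0.646 (exact permutation p = 0.9, adjusted p = 0.9). With 3 libraries against 2, the smallest p these tests can give is 0.1. In basal cells 51.4% to 86.2% held both, but leukocytes also kept Krt8 UMIs, so this share is not read that way either.

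The genotype comparison asked whether keratin levels in a class differed between libraries labelled Frmd3 knockout and wild type. In edgeR's quasi-likelihood test, 0 of the 7 keratins tested in LP, 0 of 8 in HS and 0 of 8 in basal cells passed, and each had a Benjamini-Hochberg adjusted p of 1. Over all genes, edgeR called 0% of 11497 in LP, 12730 in HS and 8072 in basal cells. At an unadjusted p under 0.05 there were 96, 87 and 48 genes, or 0.835%, 0.683% and 0.595%, none of them among the 8. DESeq2 called 0, 1 and 1 genes, or 0%, 0.00786% and 0.0124%, none a keratin studied here, and at an unadjusted p under 0.05 it had 0.609%, 0.738% and 0.273%. On simulated counts at this size the edgeR test found 87%, 54% and 63% of 4-fold changes in LP, HS and basal cells. It found 22%, 2% and 8% of 2-fold changes. Every simulated gene of a class had the same dispersion, so these are not rates for single keratins, whose spread differs. Nothing shows whether these libraries came from separate litters or days, so the p-values measure only the spread between these samples.

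In LP, Krt19 was at 1283, 1420 and 1225 TMM-scaled CPM in KO1, KO2 and KO3 and at 1536 and 1614 in WT1 and WT2. It was the only 1 of 7 keratins whose ranges did not overlap, lower in knockout-labelled libraries by a log2 fold change of -0.27 ± 0.19 (SE; edgeR adjusted p = 1). Ranges failed to overlap for 6.57% of all genes tested in LP in the lower direction and 6.37% in the higher. Krt8 (-0.52 ± 0.27), Krt18 (-0.43 ± 0.33) and Krt7 (-0.54 ± 0.52) overlapped, with KO3 the lowest library for each. Krt14 had the largest LP value, -1.90 ± 1.06 on the log2 scale (edgeR adjusted p = 1), and it rests on WT2: without that library the log2 value was 0.11 (edgeR adjusted p = 1). Without a filter on low counts, Krt14 passed in LP (-1.89, edgeR adjusted p = 0.000162), as did other genes, counted in the closing section. In WT2, 2 LP cells carried 88 of the 164 Krt14 UMIs. For Krt17 the LP value of -0.71 ± 0.83 likewise became 0.14 without WT2. With the replicate number as a block, Krt14 (edgeR adjusted p = 2.89e-07) and Krt17 (edgeR adjusted p = 0.0448) passed in LP. They were among a larger number of genes called in that run, counted in the closing section. The labels do not say that the numbers pair libraries, and KO3 has no partner. Krt15 was the only keratin with a positive LP value, 0.72 ± 0.69, from 2 to 25 UMIs a library.

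In HS, Krt8 was at 7751, 7904 and 5079 TMM-scaled CPM in the knockout-labelled and at 8819 and 9044 in the wild type libraries, a log2 fold change of -0.37 ± 0.24 (SE). Krt18 was at 7747, 8014 and 4451 against 8994 and 8039, or -0.34 ± 0.29. The ranges of both did not overlap, as for 5.70% of all genes tested in HS in the lower direction and 5.46% in the higher, and for Krt18 the nearest libraries, KO2 at 8014 and WT2 at 8039, nearly touched. Krt7 (-0.36 ± 0.45) and Krt19 (-0.11 ± 0.23) overlapped, and the Krt19 value turned to 0.03 without KO3. Krt5 (0.69 ± 1.09) and Krt14 (1.32 ± 1.28) had positive values that rested on KO3 and on the Tph1-led cluster of very deep cells. Without KO3 they were -0.41 and -0.55, and without that cluster -0.84 and -0.15. In the cluster led by Fos and Mfsd2a, Krt8 was at 5383, 3928 and 5468 CPM in KO1, KO2 and KO3, before TMM scaling. It was at 6245 and 5132 in WT1 and WT2, so the ranges overlapped there. Krt18 in that cluster was at 6249, 5150 and 5009 against 8120 and 5321, again with overlap. The part of the cluster mix in the HS values of Krt8 and Krt18 was not tested.

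In basal cells 0 of the 8 had ranges apart, against 10.3% of all genes tested (5.36% lower and 4.92% higher). The log2 values ran from -0.63 ± 0.62 (SE) for Krt15 to 0.09 ± 0.29 for Krt5. Krt14 was at 2150, 2137 and 1091 TMM-scaled CPM against 2442 and 1670, and Krt17 at 1520, 2206 and 929 against 1855 and 1748. KO3 was the lowest library for 7 of the 8 keratins before TMM scaling. The KO3 basal value of Krt18 rested on 17 UMIs.

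**Figure D4:**
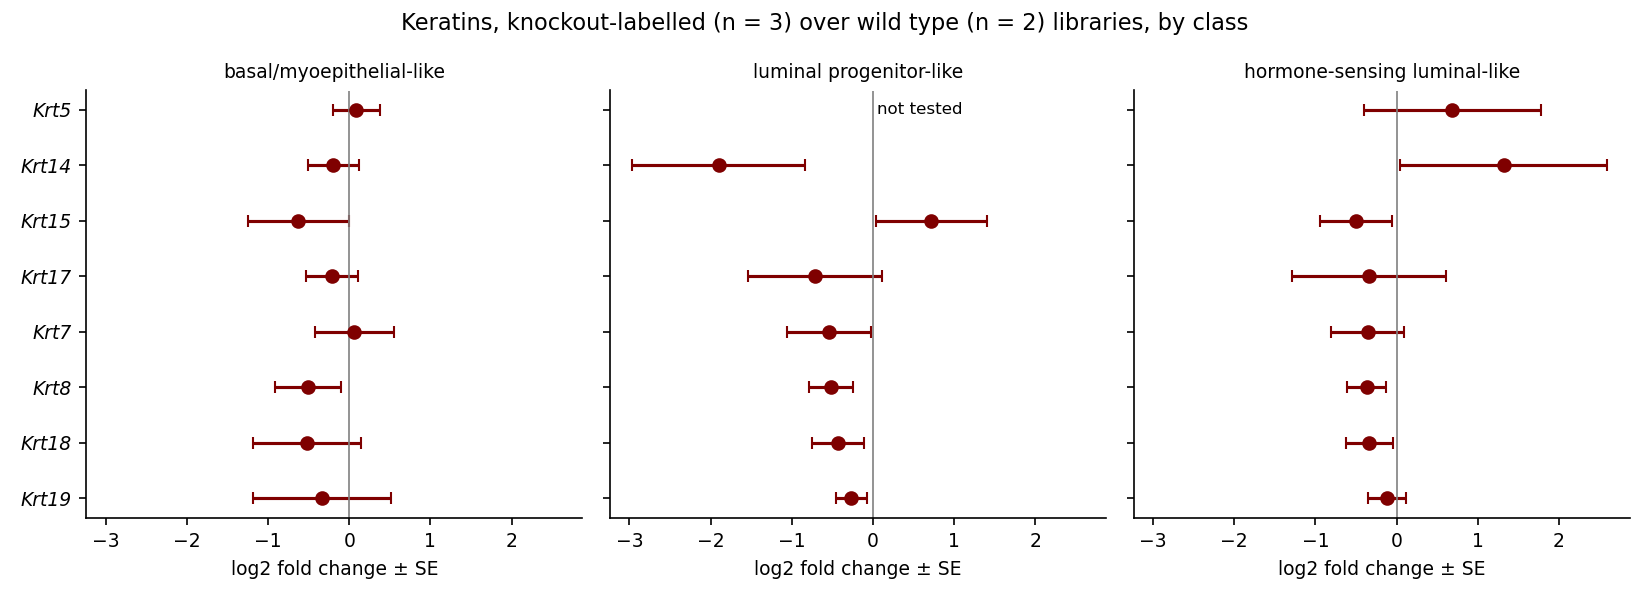
Log2 fold change of each keratin, knockout-labelled (n = 3) over wild type (n = 2) libraries, with its standard error, in basal, LP and HS classes, from edgeR. Most points lie left of 0, none passed the test, and Krt5 was not tested in LP.

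Across the 8 genes the fold changes were below 0 for 6 of 7 in LP (median log2 value -0.52), 6 of 8 in HS (-0.34) and 6 of 8 in basal cells (-0.28). The median over all genes tested was within 0.002 of 0 in each class. The 8 are not independent of each other, and KO3, the library with the high heat shock RNA, was lowest for 7 of 8 in LP, 4 of 8 in HS and 7 of 8 in basal cells. It was also highest for 1 of 8 in LP (Krt15), 3 of 8 in HS (Krt5, Krt14 and Krt17) and 0 of 8 in basal cells. In LP its values of Krt5, Krt14 and Krt17 were 0 UMIs in 48 cells, which allows up to 7.32 CPM. The difference of the genotype effect between classes was tested as an interaction, and 0 keratins passed in the 3 class pairs, with 0% of genes called in each by edgeR. Krt15 came nearest, with only 2 to 25 UMIs a library in LP. Its HS log2 value ran from -0.975 to 0.207 with 1 library left out. Its genotype effect was lower in HS than in LP by a log2 difference of -1.19 ± 0.44 (SE). The edgeR adjusted p was 1 over all genes, and 0.0269 before adjustment. An unadjusted p under 0.05 was seen for 0.904% of genes in that pair, 1.80% for LP with basal cells and 1.07% for HS with basal cells. Simulated 4-fold interactions, with the same dispersion for every gene, were found in 9% to 13.5% of cases.

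The balance within the keratin pairs was compared by genotype with exact tests. Krt5 made up 23.0%, 20.6% and 28.8% of Krt5 plus Krt14 UMIs in basal cells of KO1, KO2 and KO3 and 19.7% and 20.4% in WT1 and WT2. The 3 knockout-labelled libraries lay above both wild type ones, KO2 and WT2 only just. The mean was 24.1% ± 4.24 (SD, n = 3) in knockout-labelled and 20.1% ± 0.518 (n = 2) in wild type libraries (two-sided exact permutation p = 0.2, adjusted p = 0.6 over 3 pair tests), where 0.1 is again the smallest p possible. Krt8 made up 55.4% ± 3.21 against 56.2% ± 0.977 of its pair in LP (exact permutation p = 0.8, adjusted p = 1) and 51.0% ± 2.01 against 51.2% ± 2.43 in HS (exact permutation p = 1).

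Over 70 sums of class and library, from 17 classes, Krt5 and Krt14 correlated at a Pearson r of 0.921 and Krt8 and Krt18 at 0.948 (log2 of CPM plus 1). Krt5 and Krt8 correlated at 0.183. The gene other than a keratin nearest to Krt5 was Col17a1, a hemidesmosome collagen (0.956), and it was also nearest to Krt14 (0.909) and Krt17 (0.856), while Krt15 was nearest to Trim29 (0.905). Cldn3, a tight junction claudin, was nearest to Krt18 and Krt19. The sums share libraries and depth, so these values are a description over 8727 genes.

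Of the 45 other numbered keratins listed, 36 had a UMI in the epithelial classes and 16 had at least 20 in 1 class. Krt6a, a type II chain of hair follicle and wounded skin, was at 376, 402, 152, 640 and 402 CPM in HS and at 1.55 to 6.0 in LP. Krt16, a type I chain that pairs with it in skin, was at 23.4, 32.3, 21.0, 48.5 and 49.0 in HS. Its HS ranges did not overlap, as for 1 of the 3 other type I keratins tested and 11.2% of all genes, and its log2 fold change was -0.95 ± 0.24 (SE; edgeR unadjusted p = 0.00737, adjusted p = 1; 0.683% of genes had an unadjusted p under 0.05). In the LP cells of WT2 it reached 62.1, against 2.68 to 24.4 in the other libraries. Krt80, a type II chain, had the opposite preference, with 81.3, 91.0, 24.4, 106 and 160 in LP and 10.4 to 21.6 in HS. Krt4, a mucosal type II chain, was at 61.8 in HS of WT1 and 3.35 to 19.1 elsewhere. Krt79 (11.6 to 35.5) and Krt78 (5.64 to 24.0) were also found in HS, and Krt77 ran from 0.368 in KO2 to 18.5 in WT1. Krt23 was at 27.0 to 65.9 in basal cells and 8.20 to 17.8 in LP. Krt10 and Krt42 were at 13.8 to 26.0 and 8.64 to 24.0 in basal cells. The remaining 6 with at least 20 UMIs (Krt1, Krt13, Krt31, Krt32, Krt87 and Krt88) stayed at or under 3.66 in HS.

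**Figure D5:**
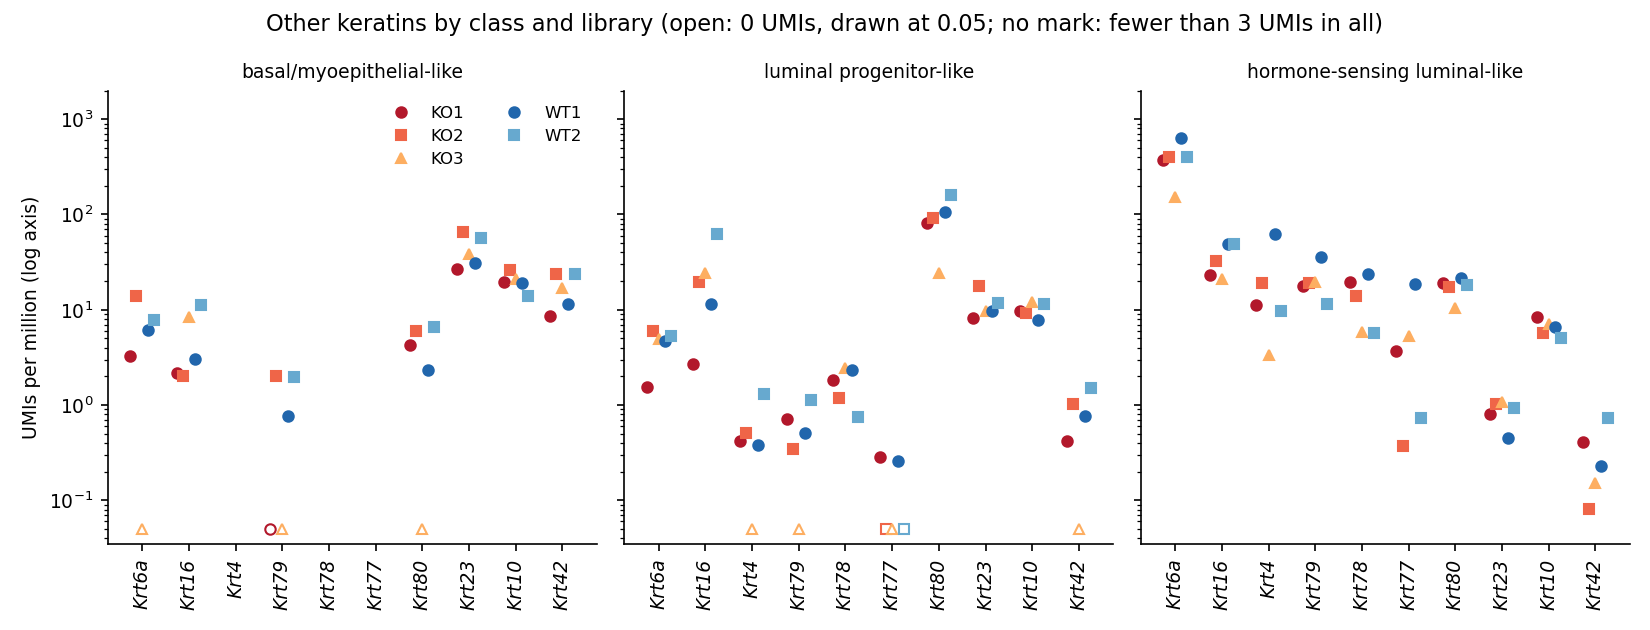
Level of 10 other keratins in basal, LP and HS classes, in CPM on a log axis, with 1 point per library and open marks for 0 UMIs. Krt6a (152 to 640) stands out in HS and Krt80 (24.4 to 160) in LP. Krt16 is higher in HS than in LP except in WT2 (49.0 against 62.1) and KO3 (21.0 against 24.4).

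Genes that work with keratins were counted from lists of other type I and type II keratins, other intermediate filaments, desmosome and hemidesmosome anchors, keratin-binding proteins and transcription factors. In each list and class, 0 genes passed the edgeR test in either direction. Of the anchor genes, 13 of 15 tested had a log2 value below 0 in LP (median -0.32), 15 of 16 in HS (-0.22) and 8 of 13 in basal cells (-0.11). Ranges were apart for 3 of the 15 in LP, 1 of the 16 in HS and 0 of the 13 in basal cells, against 12.9%, 11.2% and 10.3% of all genes in either direction. Ppl, the desmosome-linked periplakin, was at -0.61 ± 0.27 in LP (edgeR unadjusted p = 0.0498, adjusted p = 1), with ranges apart. Itgb4, the hemidesmosome integrin, was at -0.31 ± 0.16 in HS with ranges apart, and Dst, which ties keratins to hemidesmosomes, at 0.33 ± 0.28 in basal cells with overlap. Among the binding proteins, 7 of 11 were below 0 in LP, 6 of 11 in HS and 5 of 10 in basal cells. The epiplakin gene Eppk1 was at -0.43 ± 0.25 in LP. Hspb1, a small heat shock protein, was at 0.80 ± 0.64 in HS, where KO3 held 2157 TMM-scaled CPM against 451 to 1104 in the other 4 libraries. Of the transcription factors, 7 of 13 were below 0 in LP, 4 of 13 in HS and 4 of 9 in basal cells. Gata3, a luminal factor, was at 0.41 ± 0.23, 0.40 ± 0.36 and 0.31 ± 0.32 in LP, HS and basal cells, with overlapping libraries in all 3. Other type II keratins were below 0 for 3 of 3 in LP and 7 of 7 in HS, and none was tested in basal cells. Among other intermediate filaments, 4 of 5, 3 of 6 and 4 of 5 were below 0, with Lmna, which encodes lamins A and C, at -0.27 ± 0.20 in LP.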

How the data were processed

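Single-cell libraries of mouse mammary gland were analysed from UMI counts. The authors' deposited counts are whole molecules per gene and cell barcode; per the file headers they come from Cell Ranger 6.0.2 (KO3: 6.1.2), and per the submitters' processing notes from the mm10 build. The reads were 150 bp paired ends, per the labels' protocols. Totals ran from 24197344 (KO3) to 87577099 (WT2) UMIs a library.

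Barcodes under 500 genes or over 15% mitochondrial UMIs were dropped. Doublets were scored against simulated ones, on variable genes from which keratins were not left out, and removed at 0.8% per 1000 cells. Cells were clustered (2000 variable genes without any keratin, 30 components, 20 neighbours, Leiden resolution 1, leidenalg 0.10.2) and named from markers other than keratins. UMIs were summed per library and class. For shares of cells, each cell was thinned to 3000 UMIs and shallower cells were left out (8 to 121 LP cells a library). Exact 95% limits cover counting error only, and a count of 0 allows 3 counts.

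Genotypes were compared with edgeR 4.0.16 (quasi-likelihood, TMM, low counts filtered, Benjamini-Hochberg over all genes) in R 4.3.3, with DESeq2 1.42.0 as an alternative, and shares with exact permutation tests. The edgeR fits were tested on simulated data. Other alternatives were no filter on low counts, a replicate block, doublets kept, stricter cell limits (1000 genes, 10% mitochondrial), keratins kept in clustering, classes by marker counts, thinning to 1500 UMIs and leaving out each library. Leaving out the very deep HS cluster was added after seeing the data. Named were the 8 keratins, other keratins with at least 20 UMIs in an epithelial class, the 2 genes most correlated with each keratin, and up to 3 genes per list and class with the smallest unadjusted p; the text gives some of these. The keratins and lists were chosen with earlier results of these data known.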

Additional observations from a re-analysis of the deposited data

How the results depend on the processing

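With 3 libraries against 2, small differences were not detectable, and basal cells numbered 34 to 133 a library. Of 23 keratin fold changes (log2, knockout-labelled over wild type), 11 kept their sign in every alternative run, 12 changed it in at least 1, and 2 passed the threshold in any. The 4 basal keratins had their highest mean level in basal cells in all 9 alternatives, and no interaction of a keratin passed in 11.

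Without a filter on low counts, edgeR called 60 genes in LP, 1 of them a keratin studied here (Krt14), and 2 genes in basal cells. The number of genes tested in that run was not recorded. DESeq2 called 1 gene in HS and 1 in basal cells. With the replicate number as a block, edgeR called 164 of 11497 genes in LP, 57 of 12730 in HS and 11 of 8072 in basal cells. Among them were 2 keratins in LP: Krt14 (-1.67, edgeR adjusted p = 2.89e-07) and Krt17 (-0.48, edgeR adjusted p = 0.0448). The labels give only a number, and KO3 has no partner. Deviations of same-numbered libraries from their group means correlated (r from 0.322 to 0.649 over genes in 2 pairs). With 2 wild type libraries their deviations mirror each other by construction, so the 2 pairs are not separate evidence. These r values cannot decide whether the numbers pair libraries, and the block is a hint from the data only. Under the block these log2 values changed sign: Krt5 (-0.446), Krt14 (-0.186) and Krt19 (0.0172) in HS, and Krt14 (0.0845), Krt17 (0.0243) and Krt19 (0.153) in basal cells. With doublets kept, Krt5 was -0.693 and Krt14 -0.904 in HS and Krt7 -0.687 in basal cells, the HS share of cells with both keratins differed by -0.608 points and the HS Krt8 share by 0.00128 points. With classes by marker counts, Krt14 was -1.32 in HS, and Krt5 -0.157 and Krt7 -0.306 in basal cells. Without the very deep HS cluster, Krt5 was -0.837 and Krt14 -0.153 in HS and the share with both keratins differed by -0.185 points. The cause was not tested.

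Leaving out 1 library at a time gave 0 to 4 genes called in LP (4 without WT2), 0 in HS and 0 to 13 in basal cells (13 without WT2), and 0 keratins in each. Log2 values then ranged from -3.29 to 0.113 for Krt14 and -1.73 to 0.135 for Krt17 in LP. In HS the ranges were -0.412 to 1.36 for Krt5, -0.545 to 2.80 for Krt14, -0.975 to 0.207 for Krt15, -1.54 to 1.08 for Krt17 and -0.297 to 0.0269 for Krt19. In basal cells they were -0.133 to 0.351 for Krt5, -0.444 to 0.105 for Krt14, -0.564 to 0.0535 for Krt17, -0.227 to 0.403 for Krt7 and -1.16 to 0.978 for Krt19. The difference in the share of HS cells with both keratins ranged from -0.203 to 0.815 points, and that in the Krt8 share from -1.95 to 1.48 points in HS and -2.61 to 0.447 in LP.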
